A study of Homo sapiens with 6 samples.

Results

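The RAS to ERK pathway is held in check by genes that it induces itself. Several dual-specificity phosphatases of the DUSP family remove phosphate from ERK, p38 or JNK. Sprouty (SPRY) and SPRED proteins dampen signaling from receptor tyrosine kinases at the level of RAS and RAF. Because several of these genes are transcribed when ERK is active, their mRNA levels are often read as a measure of ERK output. The 10 genes examined were DUSP1, DUSP4, DUSP5, DUSP6, DUSP10, SPRY1, SPRY2, SPRY4, SPRED1 and SPRED2. They were chosen by name with earlier results of these data known, as were the gene lists used below. All 10 were found among the 58735 genes of the count table and passed the filter on low counts that left 15754 genes for testing.

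RNA-seq was performed on A549, a human lung adenocarcinoma line. The cells carried a lentiviral vector in which the human PGK promoter drives IL17D together with GFP (IL17D cells) or the same kind of vector without the insert (control cells, named empty vector in the plots), and both were grown in RPMI1640 with fetal bovine serum. Each group had 3 libraries, and the sources do not say whether these came from separate transductions or cultures, so the p-values measure only the spread between these libraries, which may be technical. The question was which genes differ when A549 cells overexpress IL-17D, a cytokine of the IL-17 family.

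Library totals ranged from 14319398 to 16521021 counts, the share of mitochondrial counts from 6.85% to 7.36%, and IL17D itself had 18 to 34 counts in control libraries against 26772 to 32155 in IL17D libraries. Levels are given as CPM, which are counts scaled by library total and TMM factor. The epithelial keratins KRT8 and KRT18 averaged 7648 and 3591 CPM in control cells, whereas the epithelial markers EPCAM and KRT19 stood at only 1.05 and 0.370 CPM. Of 5 blood cell markers, CD14 had 8 to 20 and CD68 0 to 4 counts per library, and their summed level was 0.746 to 1.11 CPM in control and 0.669 to 1.22 CPM in IL17D libraries. The other markers, PTPRC, CD3E and HBB, had no count in any library, which allows up to 0.210 CPM in the shallowest library for counting error. Of 6 endothelial and fibroblast markers, only COL1A1 was above the filter, at 23.3 CPM in control and 21.0 CPM in IL17D cells. The summed level of the 6 epithelial markers was 12737 to 13243 CPM in control and 12372 to 12619 CPM in IL17D libraries, and CDH1, which encodes E-cadherin, was the only one of 5 tested to pass the edgeR test, with 43.4 ± 2.65 CPM in control and 35.7 ± 3.32 CPM in IL17D cells (SD, n = 3 each; adjusted p = 0.031). That call was absent with DESeq2 and without control replicate 2 or 3 or IL17D replicate 1 or 2, where 0 of the markers passed, and 2 passed with limma voom. The part of these differences in the results below was not tested.

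Of the 10 inhibitors, DUSP1 was the only one that changed at an adjusted p under 0.05 (quasi-likelihood test in edgeR, adjusted by Benjamini-Hochberg over all 15754 tested genes), with a level 1.11 times that of control cells. SPRY1 had the fitted change farthest from 0, at 32.7% lower, and it did not pass (adjusted p = 0.12). The 8 other genes lay between 10.9% lower and 18.2% higher and did not pass. The single call upward stands beside 0.673% of all tested genes called higher, and 0 of the 10 were called lower, beside 0.908% of all tested genes. At an unadjusted p under 0.05, DUSP1, DUSP4 and DUSP5 were higher, beside 5.59% of all tested genes, and SPRY1 was lower, beside 5.99%. The median log2 fold change of the 10 genes was 0.072, with 8 genes above 0 and 2 below, and the median of all tested genes was -0.00044.

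**Figure D1:**
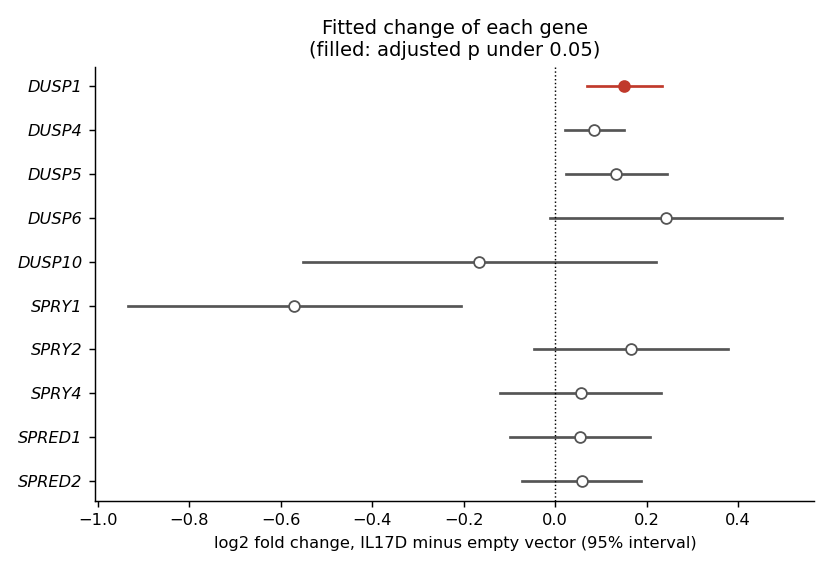
Log2 fold change of IL17D over control cells for each of the 10 genes (points) with its 95% interval (lines) from edgeR's quasi-likelihood fit of 3 libraries per group. The filled point is DUSP1, the only gene with an adjusted p under 0.05. The intervals of DUSP4, DUSP5 and SPRY1 also lie on one side of 0, and the remaining 6 include 0.

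The DNA before the start of DUSP1, the gene that was called, and of SPRY1, the gene with the change farthest from 0, is shown so that the elements near both genes can be compared. Both sequences are from RefSeq on GRCh38.p14 and hold the 250 bases before an annotated start, written 5′ to 3′ on the strand of the gene. That of DUSP1 lies at chr5:172771196-172771445 on the minus strand, and that of SPRY1, before the more upstream of its 2 listed starts, at chr4:123396545-123396794 on the plus strand. Capitals mark matches to any of 5 searched motifs on either strand.
DUSP1: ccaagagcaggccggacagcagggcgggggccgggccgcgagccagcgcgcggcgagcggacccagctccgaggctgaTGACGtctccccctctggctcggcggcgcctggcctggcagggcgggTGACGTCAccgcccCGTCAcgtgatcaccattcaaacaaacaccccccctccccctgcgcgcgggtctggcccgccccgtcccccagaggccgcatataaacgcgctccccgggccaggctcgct
SPRY1: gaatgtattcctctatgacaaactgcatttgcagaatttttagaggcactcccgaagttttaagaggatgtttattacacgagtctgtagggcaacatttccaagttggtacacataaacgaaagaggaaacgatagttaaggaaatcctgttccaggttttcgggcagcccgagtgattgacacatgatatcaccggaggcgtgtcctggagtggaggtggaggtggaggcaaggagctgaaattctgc
The motifs were the cyclic AMP response element TGACGTCA, its core TGACG, the AP-1 site TGANTCA, the ETS site CCGGAAGT and the serum response element (CArG box). The core is contained in the full element, once on each strand. DUSP1 held 1 full element, from base -125 to -118 relative to the start, and 4 cores, of which 2 lie within that element and the others begin at -172 and -111. The SPRY1 window held none of the 5 motifs.

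Windows of the same length were on hand for 8 of the 10 genes, with 13 starts in all. The full element was found in 1 of the 13, that of DUSP1, and in 1.65% of all 35116 promoter windows. The core was found before 3 starts, of DUSP1, SPRY2 (base -190) and SPRY4 (base -68), and in 21.2% of all windows. None of the 13 held the AP-1 site, the ETS site or the serum response element, which occur in 6.57%, 3.42% and 1.16% of all windows. These matches describe letters only, and factor binding was not measured.

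Levels were compared between genes per kilobase of gene model, since longer transcripts collect more reads. In control cells DUSP1 was highest, with 78.8 ± 2.74 CPM per kb, followed by DUSP4 with 60.4 ± 0.409 and DUSP5 with 31.9 ± 2.70 CPM per kb (SD, n = 3 each). These phosphatases are nuclear enzymes, and they stood well above the rest. SPRED2 followed with 10.1 ± 0.719 CPM per kb, and SPRY2, SPRED1 and SPRY4 lay close together with 4.76 ± 0.187, 4.25 ± 0.455 and 3.96 ± 0.488 CPM per kb. The lowest were DUSP6 with 2.33 ± 0.449, DUSP10 with 1.49 ± 0.0452 and SPRY1 with 1.42 ± 0.134 CPM per kb. Among neighbours in this order, the control libraries overlapped for SPRY2 and SPRED1, SPRED1 and SPRY4, and DUSP10 and SPRY1, and the other 6 neighbouring pairs did not overlap. In IL17D cells the order by mean was the same, and only SPRED1 and SPRY4 overlapped. The length is that of the authors' gene model, and a shorter transcript in A549 would raise the value per kilobase. The place of DUSP6 may also be too low, since part of its sequence is shared with an antisense gene.

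**Figure D2:**
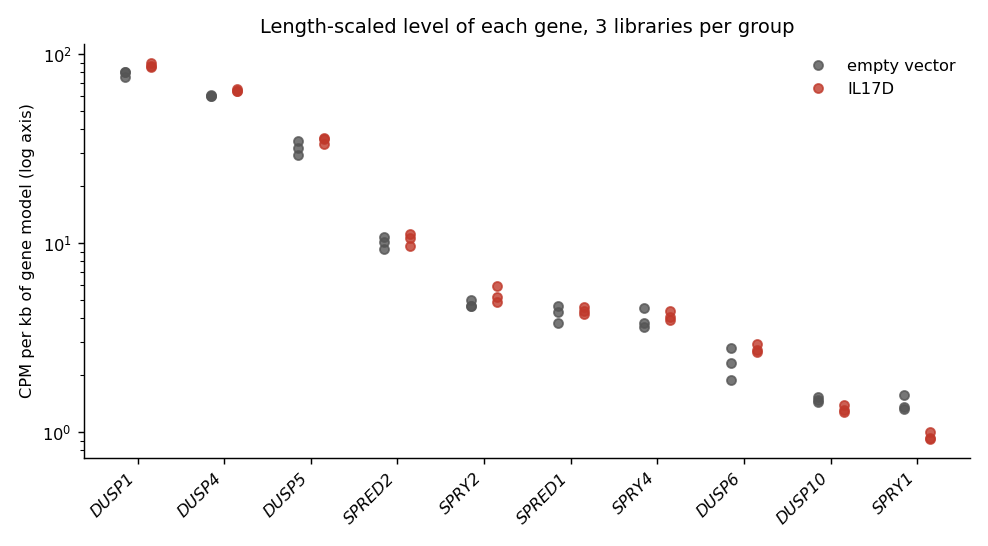
Level of each gene per kilobase of its gene model (log axis, CPM per kb) in the 3 control libraries (grey) and the 3 IL17D libraries (red), ordered by the control mean. DUSP1, DUSP4 and DUSP5 lie above 29 CPM per kb in every library and all other genes below 12.

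Among the nuclear phosphatases, DUSP1, which acts mainly on p38 and JNK and also on ERK and is itself an early response gene, had 153, 161 and 163 CPM in control replicates 1, 2 and 3 and 181, 173 and 175 CPM in IL17D replicates 1, 2 and 3. Every IL17D library was above every control library. DUSP1 (ENSG00000120129, chromosome 5 of GRCh38, 172768090 to 172771195, minus strand, 4 exons) rose from 159 ± 5.53 to 177 ± 4.52 CPM (SD, n = 3). The fitted log2 fold change was 0.15, with a standard error (SE) of 0.040 and a 95% interval of 0.069 to 0.23, and the edgeR adjusted p was 0.046. It ranked 233 of 15754 genes by p. The value lies close to the threshold: in 13 alternative analyses the log2 fold change stayed between 0.12 and 0.17, the adjusted p ranged from 0.026 to 0.27, and 6 of the 13 kept the call. The call was lost with total-count scaling (adjusted p = 0.054), with DESeq2 (0.052) and without control replicate 1 (0.23), control replicate 2 (0.092), IL17D replicate 1 (0.27), IL17D replicate 2 (0.057) or IL17D replicate 3 (0.14). An antisense gene that overlaps DUSP1, AC022217.3, had 0 to 5 counts per library.

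DUSP4, which acts on ERK and JNK in the nucleus, had the most reads of the 10 genes, with 6328 to 7106 counts in control and 6582 to 7809 in IL17D libraries. Its levels were 436, 437 and 442 CPM in control and 460, 475 and 461 CPM in IL17D replicates 1, 2 and 3. The groups did not overlap, although the means of 438 ± 2.97 and 465 ± 8.34 CPM (SD, n = 3) differed by only 6.13%. The log2 fold change was 0.086 (SE 0.032, 95% interval 0.022 to 0.15), and DUSP4 (ENSG00000120875, chromosome 8, 29333064 to 29350668) did not pass the adjusted test (unadjusted p = 0.010, adjusted p = 0.23 from edgeR). The control SD was 0.677% of the mean, under the 1.21% that counting error alone gives at this depth.

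DUSP5 is a nuclear phosphatase for ERK. It had 90.6, 76.5 and 83.1 CPM in control replicates and 94.4, 93.4 and 86.9 CPM in IL17D replicates, so that control replicate 1 lay above IL17D replicate 3 and the groups overlapped. The log2 fold change of DUSP5 (ENSG00000138166, chromosome 10, 110497838 to 110511544) was 0.13 (SE 0.054, 95% interval 0.024 to 0.24, unadjusted p = 0.019, adjusted p = 0.30 from edgeR). Leaving out 1 library changed its size most in control cells, with 0.20 without control replicate 1 and 0.077 without control replicate 2, and neither passed.

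DUSP6, the cytoplasmic phosphatase for ERK and a common marker of ERK output, was low in these cells. It had 10.7, 8.78 and 12.9 CPM in control replicates 1, 2 and 3 and 12.3, 13.5 and 12.6 CPM in IL17D replicates. Control replicate 3 lay within the range of the IL17D libraries, and control replicate 2 was the lowest of all. The log2 fold change was 0.24 with a wide error (SE 0.12, 95% interval -0.012 to 0.50, adjusted p = 0.47 from edgeR), and it was 0.12 without control replicate 2 and 0.39 without control replicate 3. DUSP6 (ENSG00000139318, chromosome 12, 89347232 to 89353271) shares 38.5% of its 31-base stretches with other genes, the largest part of them with the antisense gene AC024909.2. That gene had 0 to 3 counts per library, and since the sources do not say whether counting used strand, reads from the pair cannot be told apart. If shared reads were left out of the counts, the level of DUSP6 is understated.

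DUSP10, a phosphatase for p38 and JNK, had 4.31, 4.22 and 4.48 CPM in control and 3.71, 3.83 and 4.06 CPM in IL17D replicates. All IL17D libraries were below all control libraries. The log2 fold change of DUSP10 (ENSG00000143507, chromosome 1, 221701424 to 221742176) was -0.17 with a 95% interval of -0.55 to 0.22, and it did not pass (unadjusted p = 0.39, adjusted p = 0.82 from edgeR). The mean was 67.7 counts in control and 60.7 in IL17D libraries, where counting error alone gives 12.2% and 12.8%, more than the 3.04% and 4.68% seen between libraries.

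**Figure D3:**
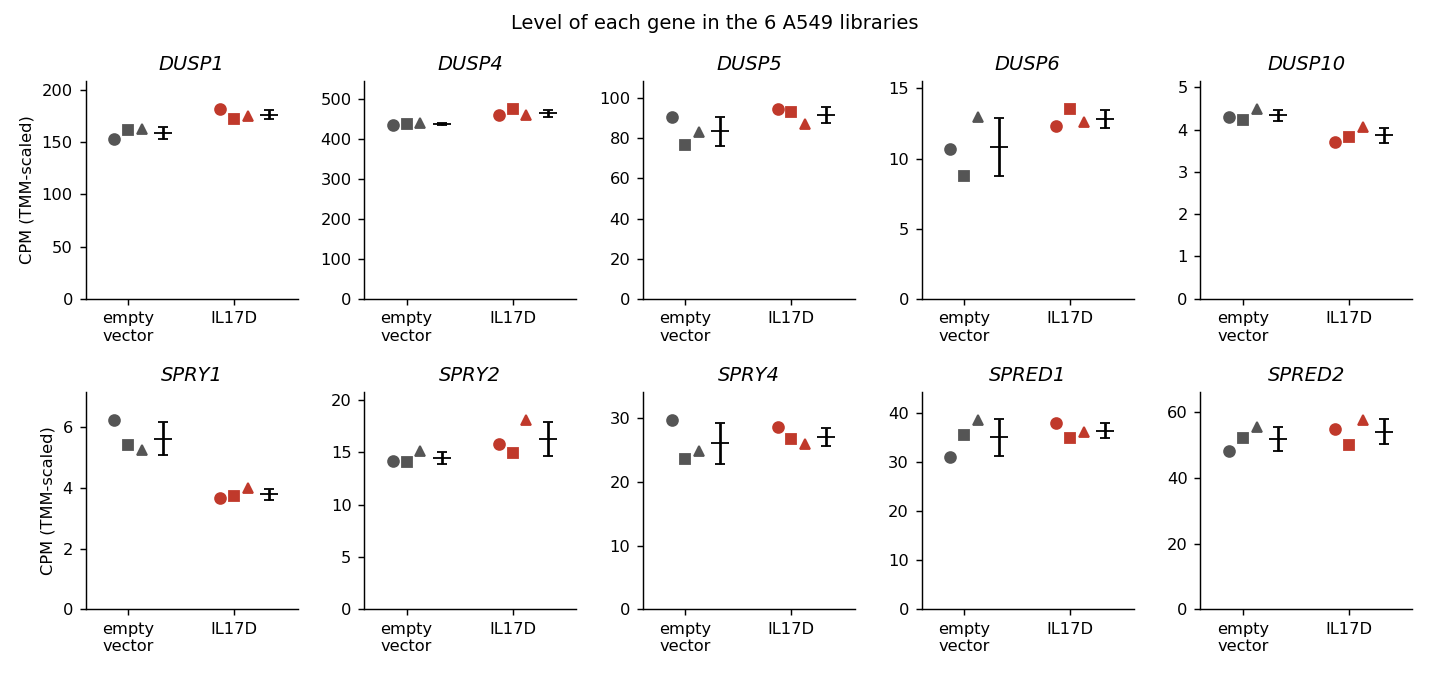
CPM (linear axis from 0) of the 10 genes in control (grey) and IL17D (red) libraries, where circles, squares and triangles are replicates 1, 2 and 3 and the black bars are mean ± SD. The groups do not overlap for DUSP1 and DUSP4, which are higher, and for DUSP10 and SPRY1, which are lower in IL17D cells, and they overlap for the other 6.

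Over the 10 genes, the IL17D libraries all lay above the control libraries for DUSP1 and DUSP4, beside 7.48% of all tested genes, and all below them for DUSP10 and SPRY1, beside 8.31%. With so few genes these counts describe the 4 genes and single out no group. Within 20 sets of 3 libraries (10 genes in 2 groups), 7 had a spread under the counting error. An SD from only 3 libraries can fall that low by sampling alone, and the cause was not tested.

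The Sprouty genes were expressed at lower levels than the leading phosphatases. SPRY1 had 6.22, 5.39 and 5.22 CPM in control and 3.65, 3.71 and 3.99 CPM in IL17D replicates 1, 2 and 3. The groups did not overlap, with 78 to 101 counts in control and 57 to 61 in IL17D libraries. SPRY1 (ENSG00000164056, chromosome 4, 123396795 to 123403760) had a fitted log2 value of -0.57 for IL17D over control (SE 0.18, 95% interval -0.93 to -0.21, unadjusted p = 0.0031, adjusted p = 0.12 from edgeR), and ranked 414 of 15754 genes by p. It passed in none of the 13 alternatives, where its log2 fold change stayed between -0.62 and -0.49 and its adjusted p between 0.11 and 0.37, the highest being without control replicate 1.

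SPRY2, the Sprouty member with the highest level per kilobase, had 14.2, 14.1 and 15.1 CPM in control and 15.8, 14.9 and 18.1 CPM in IL17D replicates. IL17D replicate 3 was the highest and IL17D replicate 2 lay below control replicate 3. The log2 fold change of SPRY2 (ENSG00000136158, chromosome 13, 80335976 to 80340951) was 0.17 (SE 0.10, 95% interval -0.047 to 0.38, adjusted p = 0.60 from edgeR), and without IL17D replicate 3 it was 0.088. SPRY4 had 29.7, 23.6 and 24.7 CPM in control and 28.6, 26.8 and 25.9 CPM in IL17D replicates, with control replicate 1 the highest of all 6. Its log2 fold change was 0.056 (95% interval -0.12 to 0.23, adjusted p = 0.88 from edgeR), and the sign turned without control replicate 2. SPRY4 (ENSG00000187678, chromosome 5, 142310427 to 142326455) overlaps the antisense gene SPRY4-AS1, which had 11 to 23 counts per library, and 2 short RNAs on the opposite strand with 2 to 8 counts.

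The makeup of the Sprouty transcripts was compared as each gene's percentage of the summed CPM per kb of SPRY1, SPRY2 and SPRY4. SPRY1 held 14.6%, 14.2% and 13.1% in control and 8.79%, 9.44% and 9.25% in IL17D replicates, a mean of 14.0 ± 0.770% against 9.16 ± 0.336% (SD, n = 3). All IL17D libraries lay below all control libraries. SPRY2 held 47.0 ± 3.24% and 51.2 ± 2.92%, and SPRY4 ranged from 37.5% to 42.0% in control and from 36.1% to 41.5% in IL17D libraries. For SPRY1 the two-sided exact permutation test gave p = 0.1, which is 0.333 after adjustment over the 10 shares computed. A p of 0.1 is the smallest that 3 libraries against 3 allow, so the test could not call any share. The SPRY1 share also rests on the same counts as its fold change and is no separate result. The share of DUSP10 among the 5 phosphatases, 0.850 ± 0.0138% in control and 0.697 ± 0.0426% in IL17D cells, and that of SPRY2 had the same p, and the other shares had larger ones.

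**Figure D4:**
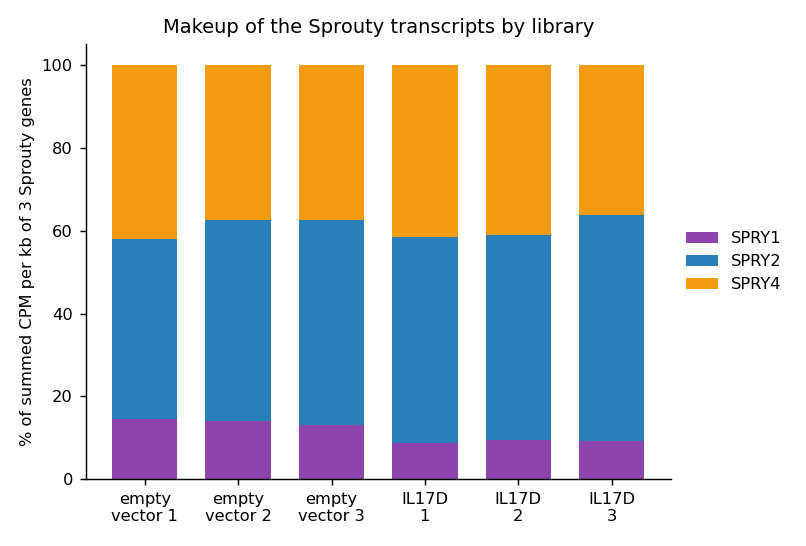
Share of SPRY1, SPRY2 and SPRY4 in their summed CPM per kb (percent, bars stacked to 100) in each library. The SPRY1 part at the bottom is 13.1% to 14.6% in the control libraries and 8.79% to 9.44% in the IL17D libraries, while the SPRY4 part ranges from 37.5% to 42.0% and from 36.1% to 41.5%.

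The SPRED genes encode Sprouty relatives that bring the RAS inhibitor neurofibromin to the membrane. SPRED1 had 31.1, 35.6 and 38.6 CPM in control and 38.1, 35.0 and 36.2 CPM in IL17D replicates, and SPRED2 had 48.0, 52.1 and 55.4 CPM in control and 54.6, 49.9 and 57.5 CPM in IL17D replicates. In both genes the groups overlapped. The log2 fold change was 0.054 for SPRED1 (ENSG00000166068, chromosome 15, 38252326 to 38357249; 95% interval -0.10 to 0.21, adjusted p = 0.87 from edgeR) and 0.058 for SPRED2 (ENSG00000198369, chromosome 2, 65310851 to 65432637; 95% interval -0.073 to 0.19, adjusted p = 0.81). SPRED2 made up the larger share of the pair in both groups, with 70.3 ± 0.774% of their summed CPM per kb in control and 70.3 ± 1.27% in IL17D cells. The sign of SPRED1 turned without control replicate 1.

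The other DUSP genes, with SPRY3 and SPRED3, were examined next. They were listed by family name, and not all of these phosphatases are known to act on ERK, p38 or JNK. Of 16 listed genes, 15 were tested, 12 were above 0 and 3 below, and the median log2 fold change was 0.093. None passed at an adjusted p under 0.05 in edgeR or in any of the 13 alternatives, DESeq2 and limma voom included. At an unadjusted p under 0.05, 3 were higher, beside 5.59% of all tested genes, and 0 were lower, beside 5.99%. These 3, named after their values were seen, were DUSP7 with a log2 value of 0.29 for IL17D over control (adjusted p = 0.19 from edgeR), DUSP3 with 0.11 (adjusted p = 0.25) and DUSP16 with 0.14 (adjusted p = 0.25). DUSP7 is the cytoplasmic relative of DUSP6 (means of 17.2 ± 0.772 CPM in IL17D and 14.0 ± 0.812 CPM in control cells, SD, n = 3 each). For DUSP7 and DUSP16 the 3 IL17D libraries lay above the control libraries, beside 7.48% of all tested genes. DUSP2 had 1 count over the 6 libraries together and was not tested.

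Among 17 tested genes of 20 other inhibitors of receptor, RAS and ERK signaling, 12 were above 0 and 5 below, with a median of 0.030. ERRFI1, an inhibitor of the EGF receptor that is itself induced by growth factors, was the only one called, beside 0.673% of all tested genes called higher and 0.908% called lower. It rose from 205 ± 3.83 to 227 ± 3.62 CPM (SD, n = 3; log2 fold change 0.14, SE 0.037, edgeR adjusted p = 0.033), close in size to DUSP1. This call was lost without control replicate 1 or 2 and without IL17D replicate 1, 2 or 3, where 0 genes of the list passed.

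In the RAS to ERK cascade, receptors included, 27 of 27 genes were tested, 17 were above 0 and 10 below, and the median was 0.030. FGFR1, a receptor for fibroblast growth factors, was the only one called, against the same background of 0.673% higher and 0.908% lower. It rose from a mean of 433 to 507 CPM (log2 fold change 0.23, SE 0.033, edgeR adjusted p = 2.2e-05). MAPK3, which encodes the kinase ERK1, had a log2 fold change of -0.0075 (95% interval -0.16 to 0.14, adjusted p = 0.99 from edgeR). DUSP1 and DUSP10 act on p38 and JNK. Of 11 genes for p38 and JNK kinases and for the kinases above them, 3 were above 0 and 8 below, with a median of -0.038. None of the 11 passed in edgeR or in the 13 alternatives, and at an unadjusted p under 0.05, 0 were higher (5.59% of all tested genes) and 2 lower (5.99%).

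Of the other transcripts listed as induced by ERK, 16 of 17 were tested, 13 were above 0 and 3 below, and the median was 0.093. The list does not tell ERK from other signals that can induce the same genes, and the libraries do not measure ERK activity. Called genes were EGR1, FOSL1, MYC and PHLDA1, all higher, beside 0.673% of all tested genes called higher and 0.908% called lower. By log2 fold change, the transcription factor gene EGR1 had 0.60 (edgeR adjusted p = 0.030), FOSL1 of the AP-1 family 0.27 (0.011), MYC 0.24 (6.3e-05) and PHLDA1 0.17 (0.030). EGR1 had 7.02, 6.64 and 5.97 CPM in control and 9.06, 12.5 and 8.13 CPM in IL17D replicates 1, 2 and 3, with IL17D replicate 2 the highest. ETV4 and ETV5, ETS factors that are transcribed with DUSP6 and the Sprouty genes in many cells, had 0.0012 (95% interval -0.12 to 0.12, adjusted p = 1) and -0.16 (95% interval -0.29 to -0.039, adjusted p = 0.24), and CCND1 had 0.043 (adjusted p = 0.67). Without control replicate 2 the list had 1 call in place of 4, and without IL17D replicate 1 or 2 it had 2. With DESeq2, with limma voom and without control replicate 1 or 3 it had 3. Whether the 10 inhibitors and these transcripts differ in their change was not tested.

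**Figure D5:**
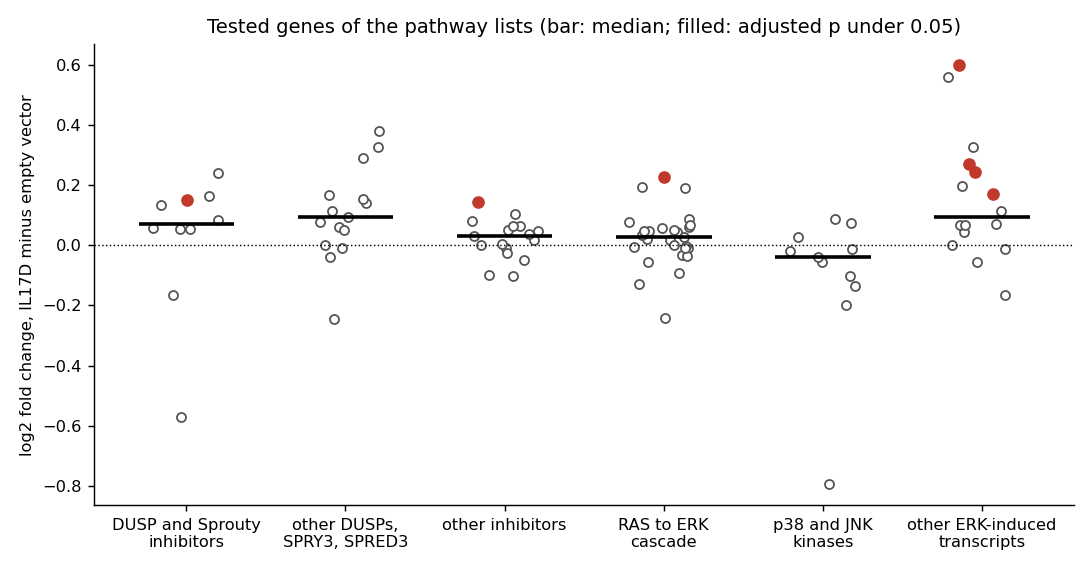
Log2 fold change of IL17D over control cells for every tested gene of 6 lists (points, spread sideways for sight only), with the median of each list as a bar and genes with an adjusted p under 0.05 filled. The medians are 0.072, 0.093, 0.030, 0.030, -0.038 and 0.093 from left to right, and the filled points are DUSP1, ERRFI1, FGFR1, EGR1, FOSL1, MYC and PHLDA1.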

How the data were processed

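Total RNA had been sequenced from 3 IL17D and 3 control A549 libraries. The authors deposited raw read counts per gene, with gene lengths, in 1 table. Bowtie2 and the build hg38 appear in the submitters' processing notes without a role, the counting tool is not given in the sources used here, and the methods and labels name different Illumina sequencers. Of 58735 genes, 58724 have the coordinates of GENCODE release 29.

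Genes were filtered with filterByExpr, scaled by TMM and tested by quasi-likelihood in edgeR 4.0.16 (R 4.3.3), with DESeq2 1.42.0 and limma 3.58.1 as alternatives. Tests were two-sided, with Benjamini-Hochberg adjustment over 15754 genes, and the 95% intervals come from the same fit. The fit was tested on simulated data. CPM per kb are TMM-scaled CPM over the deposited gene length. Shared sequence was counted in 31-base stretches of GENCODE transcripts. The floor of 3 counts covers counting error only.

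All 10 members were named, and in each other list the called genes with the smallest p (at most 4), together with EGR1, ETV4, ETV5, PHLDA1, CCND1 and MAPK3; some items that this rule names are not reported here. Members and lists were chosen with earlier results of these data known. RefSeq promoter windows of GRCh38.p14 were searched by letters in Python 3.11.15 (pandas 2.3.3, numpy 2.4.6, matplotlib 3.10.9).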

Additional observations from a re-analysis of the deposited data

How the results depend on the processing

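The number of the 10 inhibitors called higher was 1 in the main analysis. It fell to 0 with total counts in place of TMM and to 0 with DESeq2's Wald test, and it ranged from 0 to 1 when each library was left out in turn, where only the analysis without control replicate 3 kept it. It was 1 with DESeq2's size factors, with limma voom, with either other filter and with the replicate number as a block. In every one of these settings 0 were called lower. The labels do not say whether libraries with the same replicate number share a batch. Correlations were -0.027 to 0.010 between same-numbered libraries and -0.043 to 0.056 between differently numbered ones. The replicate block changed no call among the 10 genes. The sign turned for SPRY4 without control replicate 2 (-0.0063 in a range up to 0.163 over left-out libraries) and for SPRED1 without control replicate 1 (-0.0261 in a range up to 0.130). The cause was not tested. The 8 other genes kept their direction in all 13 alternatives. Depth limits DUSP10 and SPRY1 most, with 57 to 101 counts per library. Over all genes, the calls of 106 higher and 143 lower became 69 and 76 without IL17D replicate 3, 76 and 79 without IL17D replicate 1, 79 and 95 without control replicate 2, and 115 and 157 with the replicate block.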
